A study of Mus musculus with 12 samples.

Results

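The contractile genes of activated fibroblasts were followed as a list of 33 named genes, taken by symbol from a table of 18771 genes measured in mouse cardiac fibroblasts 3 days after myocardial infarction. The list held 9 smooth muscle type genes (actins, myosin, tropomyosin, calponin, transgelin and their partners), 9 cytoplasmic type genes of the same families, 2 genes that make both types by splicing, 11 genes of actin crosslinking, adhesion and LIM domain proteins, and 2 transcription genes. These classes are by gene, and gene-level counts do not show which splice products a gene made, Tpm2 and Mylk included. All 33 were in the table and all were tested. Lmod1 and Ldb3 were the weakest, with 6 of 6 Pfas CKO libraries above the count filter's 0.487 CPM, against 5 of 6 control libraries for Lmod1 and 3 of 6 for Ldb3.

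The Pfas CKO group (6 libraries) carried PDGFRa CreER/+;Pfas fl/fl, and the control group (6 libraries) carried PDGFRa CreER/+;Pfas fl/+. Both groups therefore had a tamoxifen-inducible Cre at Pdgfra, a gene of fibroblasts and other mesenchymal cells, and at least a single floxed allele of Pfas, which encodes an enzyme of de novo purine synthesis. Both underwent permanent ligation of the left anterior descending artery. The labels state tamoxifen 7 and 3 days before and 1 day after surgery for the Pfas CKO mice and say nothing of it for controls, so its effect and that of the genotype cannot be told apart. Age is not stated either. No label ties the libraries of a group to different mice. The p-values thus speak of library spread alone, which can be technical.

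After infarction, resident cardiac fibroblasts can become myofibroblasts, which assemble actin stress fibres and pull on the scar. Smooth muscle actin, encoded by Acta2, is the usual marker of that state, while cytoplasmic actins and non-muscle myosins serve movement and shape in nearly every cell. Many of these genes are driven by serum response factor (SRF), which binds CArG boxes and is switched on when its partners, the myocardin-related factors, are freed from unpolymerised actin.

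Each library held 20320133 to 20950074 estimated counts. The libraries fell into near-identical sets, which were Pfas CKO 1, 3, 5 and 6, then Pfas CKO 2, Pfas CKO 4, control 1 to 3 and control 4 to 6. The mean chi-square per gene (12739 genes) was 1.68 to 5.21 within sets, 17.55 to 39.87 across sets of a group and 168.88 to 253.25 between groups. Because members of a set may be the same material, a fit with the sets summed was also made. Pfas itself fell to 48.2% of control by edgeR (adjusted p = 2.26e-05), with 17.4 and 14.5 CPM in Pfas CKO 2 and 4 and 8.01 to 9.66 CPM in the other 4 Pfas CKO libraries, against 22.4 to 24.9 CPM in controls. All 8 fibroblast markers were detected and summed to 7522 to 8132 CPM in Pfas CKO and 9514 to 11730 CPM in control. The lower sum came with Col1a1, Col1a2 and Pdgfra, which fell, while the other 5 (Dcn, Lum, Tcf21, Dpt and Ddr2) were higher and the median log2 fold change of the 8 was 0.43. The 12 macrophage markers summed to 7510 to 9200 CPM in Pfas CKO and 6395 to 7024 CPM in control, so the libraries held RNA of more than fibroblasts. The macrophage markers disagreed, with 7 higher, 2 lower (Cd68 and Adgre1) and 3 not called (Csf1r, Lyz2 and Fcgr1). Over all genes 33.4% were called higher and 35.2% lower. Cd14 alone was 4.02-fold higher.

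Of the 33 contractile genes, 17 were higher and 9 lower in Pfas CKO than in control, and 7 were not called (edgeR quasi-likelihood test, adjusted p under 0.05 over 13600 genes). None differed by 2-fold or more, a size that 6.88% of all genes passed upwards and 6.26% downwards. The background was high, since 33.4% of all genes tested were called higher and 35.2% lower. The members' median log2 fold change was 0.18, beside -0.02 over all genes, and their range ran only between -0.60 (Cnn2) and 0.97 (Ldb3). Group ranges did not overlap for 12 members that were higher and 2 that were lower, against 23.2% and 23.9% of all genes.

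With near-identical libraries summed, 8 members were higher and 1 lower, where 18.3% and 18.9% of all genes were called. Those 8 were Myh11, Mylk, Tagln2, Cnn3, Tpm4, Palld, Pdlim5 and Ldb3, the lower gene was Actb, and the other 17 calls were lost. With library totals alone in place of TMM scaling, the median of all genes moved to -0.26, and 8 members were higher and 15 lower, where 20.4% and 53% of all genes were called. On log2(TPM + 1), 5 members were higher and 16 lower, with a background of 18.3% and 58.6%, and on log2(TPM + 0.1) the same numbers stood beside 18.3% and 58.5%. Directions below are therefore relative to TMM scaling, and a flip is given where it occurred. The call was the same under all 25 alternatives for Tagln2, Cnn3, Tpm4, Pdlim5 and Mylk, higher, and Actb, lower in Pfas CKO. Ldb3, higher, kept its call in the 22 alternatives that tested it, and its level was too low for both TPM scales and for a minimum mean of 5 CPM.

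**Figure D1:**
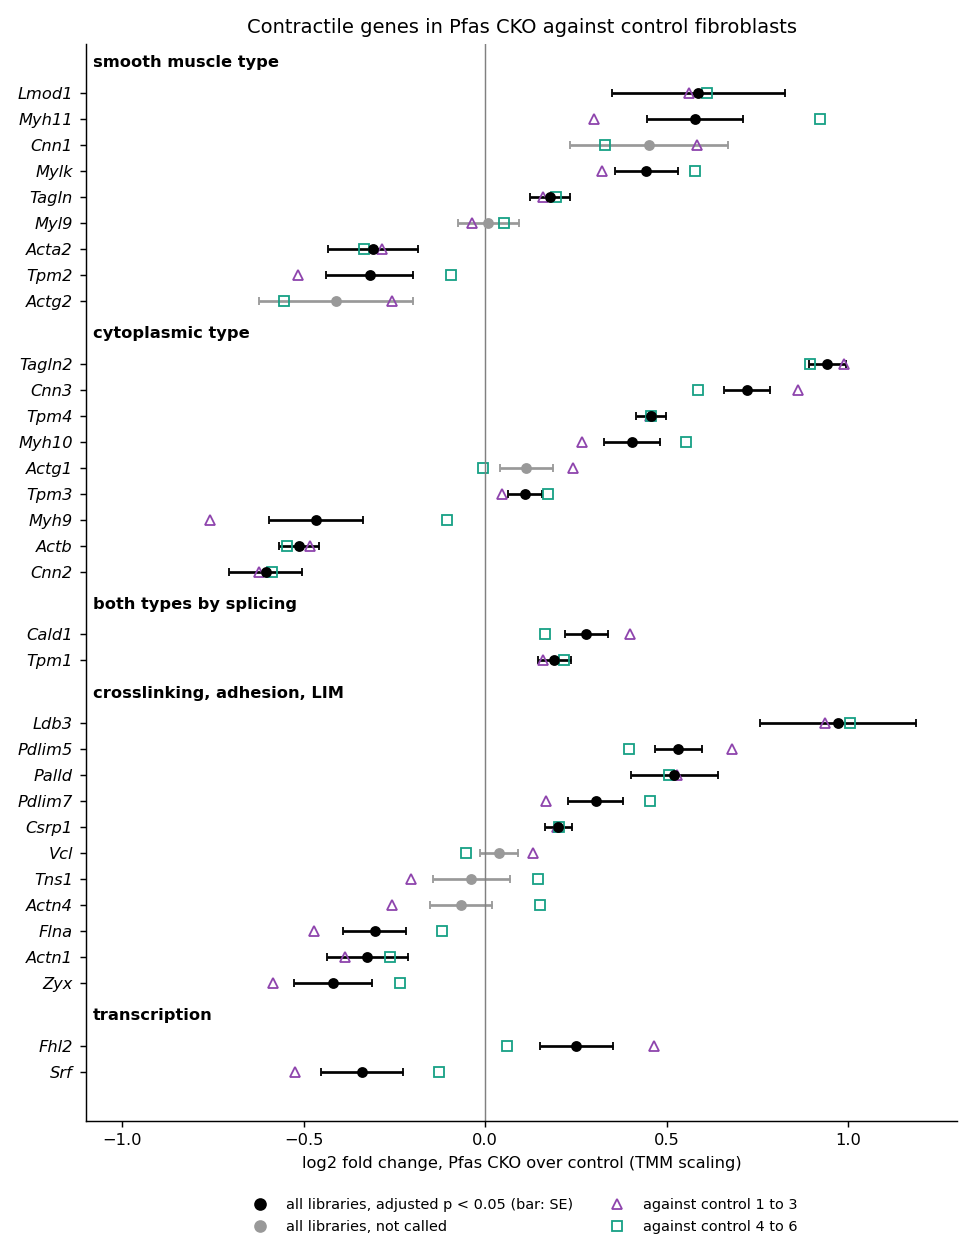
Log2 fold change of each member, Pfas CKO over control with TMM scaling, grouped by class, with bars for the SE. Black points were called, grey points were not, purple triangles give the value against control 1 to 3 and green squares that against control 4 to 6. Cytoplasmic type genes span Tagln2 at 0.94 to Cnn2 at -0.60, and Myh9 lies at -0.76 against control 1 to 3 and -0.10 against control 4 to 6.

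The actins were the most abundant family of the list by length-corrected level. Acta2, the smooth muscle actin (chr19:34241090-34255590, GRCm38), ranged between 104 and 174 CPM in Pfas CKO, with a median of 109 CPM, against 152 to 168 CPM with a median of 156 CPM in control. Pfas CKO 2, at 174 CPM, lay above every control and Pfas CKO 4, at 164 CPM, among them, while the other 4 Pfas CKO libraries lay between 104 and 112 CPM, below every control. Acta2 fell by 0.31 on the log2 scale (SE 0.12, edgeR adjusted p = 0.0377), a call lost with sets summed (-0.09, adjusted p = 0.746) and in 8 of the 12 fits that left out a single library. Acta2 was not called by edgeR against control 4 to 6 (-0.33, adjusted p = 0.106) or control 1 to 3 (-0.28, adjusted p = 0.153). Without Pfas CKO 2 and 4 the log2 fold change was -0.58 (adjusted p = 3.37e-08). That fit keeps only Pfas CKO 1, 3, 5 and 6, a single near-identical set, so the Pfas CKO spread behind its p can be technical. Actg2, the enteric smooth muscle actin, had 0.689 to 1.61 CPM in Pfas CKO and 1.197 to 1.83 CPM in control and was not called (adjusted p = 0.0984).

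Actb, the beta cytoplasmic actin (chr5:142903115-142906754), had 1261 to 1564 CPM in Pfas CKO, with a median of 1308 CPM, against 1798 to 2006 CPM with a median of 1939 CPM in control. Every Pfas CKO library lay below every control library. The fall was 0.51 on the log2 scale (SE 0.06, adjusted p = 8.56e-07) and was also called with sets summed (-0.45, adjusted p = 0.0211) and against each control set, at -0.55 against control 4 to 6 and -0.48 against control 1 to 3. Actg1, the gamma cytoplasmic actin, had 1768 to 2210 CPM in Pfas CKO and 1562 to 1960 CPM in control, and the 0.11 difference was not called (adjusted p = 0.179) and was -0.12 with library totals alone. Actin genes are near-identical in their coding sequence, so the split of reads between them is uncertain.

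By TPM, which corrects for length, Actb ranked 100 among all genes in Pfas CKO and 29 in control, and Actg1 ranked 45 in Pfas CKO and 31 in control. Of the TPM of the 4 actins, Actb made up 39.5% ± 1.15 in Pfas CKO and 49.5% ± 1.56 in control (SD, n = 6 each). Actg1 made up 56.2% ± 0.689 in Pfas CKO and 45.6% ± 1.74 in control. Neither share overlapped between groups. Actg1 had the larger share in every Pfas CKO library and Actb in every control. In control 4 to 6 the margin was narrow, with Actb at 48.0% to 48.4% and Actg1 at 47.1% to 47.2%. The uncertain split of reads between actins bears on this order too. These shares were chosen after values were seen and carry no test. The Acta2 share overlapped, at 3.64% to 5.18% in Pfas CKO and 4.44% to 5.29% in control. The 4 actins summed to 3538 ± 279 TPM in Pfas CKO and 4914 ± 178 TPM in control.

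**Figure D2:**
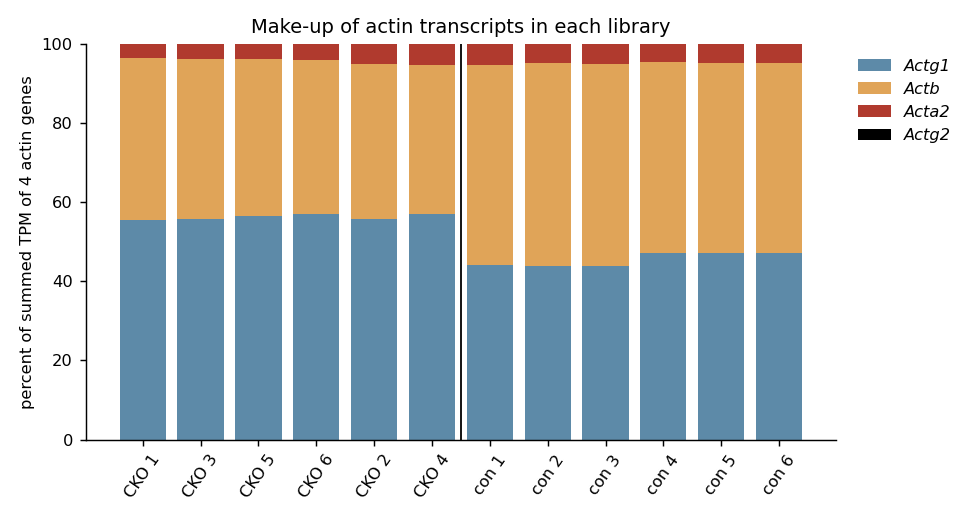
Share of each actin in the summed TPM of the 4 actin genes, in percent, for every Pfas CKO library and every control library. Actg1 takes 55.5% to 57.1% in Pfas CKO and 43.9% to 47.2% in control, and Actg2, at 0.0318% to 0.0677%, is too thin to see.

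The transgelins, small proteins that bind along actin filaments, moved unequally. Tagln, the smooth muscle transgelin (chr9:45929619-45936058), had 104 to 130.4 CPM in Pfas CKO, with a median of 119 CPM, against 99.9 to 109 CPM with a median of 104 CPM in control. Pfas CKO 2, at 104 CPM, lay within the controls and the other 5 Pfas CKO libraries above all of them. Tagln was 0.18 higher on the log2 scale (SE 0.06, adjusted p = 0.00991), but the call was lost with sets summed (0.12, adjusted p = 0.474), and with library totals alone the log2 fold change was -0.06 (adjusted p = 0.383). Tagln2, its cytoplasmic relative (chr1:172500047-172507380), had 471 to 550.3 CPM in Pfas CKO, with a median of 493 CPM, and 246 to 282 CPM in control, with a median of 256 CPM. Tagln2 was 1.92-fold higher with no overlap between groups (log2 fold change 0.94, SE 0.05, adjusted p = 2.53e-10), the largest fold among the cytoplasmic type genes, and 0.98 with sets summed (adjusted p = 3.04e-04).

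The calponins, which bind actin and dampen myosin activity, went in opposite directions within the cytoplasmic type. Cnn2 (chr10:79988584-79996062) had 37.6 to 61.1 CPM in Pfas CKO, with a median of 40.9 CPM, against 64.9 to 70.7 CPM with a median of 66.8 CPM in control. All Pfas CKO libraries lay below all controls, with Pfas CKO 2 nearest to them. Cnn2 fell by 0.60 on the log2 scale (SE 0.10, adjusted p = 6.84e-05), and with sets summed the value was -0.46 and missed the threshold (adjusted p = 0.0579). Cnn3, the acidic calponin, had 160.1 to 175 CPM in Pfas CKO, with a median of 164 CPM, against 89.6 to 112 CPM with a median of 99.3 CPM in control. Here every Pfas CKO library lay above every control, and the log2 fold change was 0.72 (SE 0.06, adjusted p = 8.76e-08), or 0.74 with sets summed (adjusted p = 0.00192). Cnn1 (chr9:22099216-22109630), the smooth muscle calponin and a late marker of contractile cells, was scarce, at 0.692 to 1.88 CPM (median 1.22) in Pfas CKO and 0.576 to 1.11 CPM (median 0.936) in control, and was not called (log2 fold change 0.45, SE 0.22, adjusted p = 0.0767). The 3 calponins summed to 215 ± 9.52 TPM in Pfas CKO and 215 ± 6.15 TPM in control.

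Among the myosins, Myh11, the smooth muscle heavy chain (chr16:14194535-14291372), had 25.8 to 32.3 CPM in Pfas CKO, with a median of 28.1 CPM, against 14.8 to 25.1 CPM with a median of 17.9 CPM in control. The groups did not overlap, but control 1 to 3, at 20.4 to 25.1 CPM, came close while control 4 to 6 held 14.8 to 15.3 CPM. Myh11 was 0.58 higher on the log2 scale (SE 0.13, adjusted p = 0.00114), 0.30 against control 1 to 3 and 0.92 against control 4 to 6. By TPM the groups overlapped, and the call was lost by limma on log2(TPM + 1) (0.24, adjusted p = 0.132) and on log2(TPM + 0.1). Myh9, the main non-muscle heavy chain (chr15:77760587-77842175), had 579.6 to 683 CPM in Pfas CKO, with a median of 602 CPM, and 646 to 1085 CPM in control, with a median of 804 CPM. The control sets stood apart, with 939 to 1085 CPM in control 1 to 3 and 646 to 668 CPM in control 4 to 6. Its log2 fold change was -0.47 over all libraries (SE 0.13, adjusted p = 0.00509), -0.76 against control 1 to 3 and -0.10 against control 4 to 6, the last not called (adjusted p = 0.123), and it was not called with sets summed (adjusted p = 0.0794).

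Myh10, the other non-muscle heavy chain, had 29.1 to 34.7 CPM in Pfas CKO, with a median of 32.4 CPM, against 21.2 to 28.9 CPM with a median of 23.4 CPM in control. The groups narrowly missed each other, and Myh10 was 0.40 higher on the log2 scale (SE 0.08, adjusted p = 2.91e-04). The call was lost with sets summed (0.36, adjusted p = 0.0639) and with library totals alone (0.17, adjusted p = 0.0757). Myl9, the regulatory light chain that Mylk phosphorylates to start contraction, averaged 21.9 ± 2.93 CPM in Pfas CKO and 21.8 ± 1.62 CPM in control (SD, n = 6 each), and its log2 fold change of 0.01 was not called (SE 0.08, adjusted p = 0.932), while library totals alone gave -0.22 (adjusted p = 0.0283). Mylk, the light chain kinase, had 11.1 to 13.5 CPM in Pfas CKO, with a median of 12.7 CPM, against 7.95 to 11.1 CPM with a median of 8.96 CPM in control. The groups touched only where Pfas CKO 2 met control 3, and Mylk was 0.44 higher on the log2 scale (SE 0.09, adjusted p = 2.89e-04) and 0.43 with sets summed (adjusted p = 0.0465).

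The tropomyosins lie along actin filaments and set which motors can bind them. Tpm4 (chr8:72134975-72153142), a cytoplasmic form, had 693 to 779.5 CPM in Pfas CKO, with a median of 712 CPM, against 517 to 539 CPM with a median of 525 CPM in control. The groups were well separated, and Tpm4 was 0.46 higher on the log2 scale (SE 0.04, adjusted p = 1.36e-07), at 0.46 against control 4 to 6 and 0.45 against control 1 to 3. Tpm2, the beta tropomyosin gene (chr4:43514711-43523765), was classed as smooth muscle type, although gene-level counts cannot separate its splice products. It had 34.4 to 50.1 CPM (median 36.7) in Pfas CKO, against 41.3 to 59.97 CPM (median 49.8) in control. Pfas CKO 2 and 4, at 50.1 and 48.0 CPM, lay within the controls and the other 4 below all of them. Tpm2 fell by 0.32 on the log2 scale (SE 0.12, adjusted p = 0.0269), but not against control 4 to 6 (-0.09, adjusted p = 0.523) nor with sets summed (adjusted p = 0.478). Tpm3, a cytoplasmic form, had 598 to 658 CPM in Pfas CKO (median 640.4) and 552 to 618 CPM in control (median 589), ranges that overlapped. Its log2 fold change of 0.11 only just passed (SE 0.05, adjusted p = 0.0463) and was -0.12 with library totals alone, where Tpm3 was called lower (adjusted p = 0.0312). With sets summed it was 0.10 and not called (adjusted p = 0.526).

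Tpm1 and Cald1 each make smooth muscle and cytoplasmic products, which gene-level counts cannot separate. Tpm1 averaged 290.5 ± 15.1 CPM in Pfas CKO and 255 ± 7.28 CPM in control (log2 fold change 0.19, SE 0.05, adjusted p = 0.00158), and the value was -0.04 with library totals alone. Cald1, which encodes the actin-binding caldesmon, averaged 358 ± 15.8 CPM in Pfas CKO and 295 ± 26.1 CPM in control (0.28, SE 0.06, adjusted p = 6.25e-04), with 0.05 for library totals alone and -0.004 on log2(TPM + 1). Neither was called with sets summed, although the groups did not overlap for either gene.

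Lmod1, a leiomodin that nucleates actin filaments in smooth muscle, had 0.688 to 1.62 CPM in Pfas CKO, with a median of 0.797 CPM, against 0.402 to 0.804 CPM with a median of 0.624 CPM in control. The ranges overlapped and Pfas CKO 2 was the highest library. Its log2 fold change was 0.59 (SE 0.24, adjusted p = 0.0386), and it was lost with DESeq2, with sets summed (adjusted p = 0.128) and without Pfas CKO 2 and 4 (0.27, adjusted p = 0.321).

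**Figure D3:**
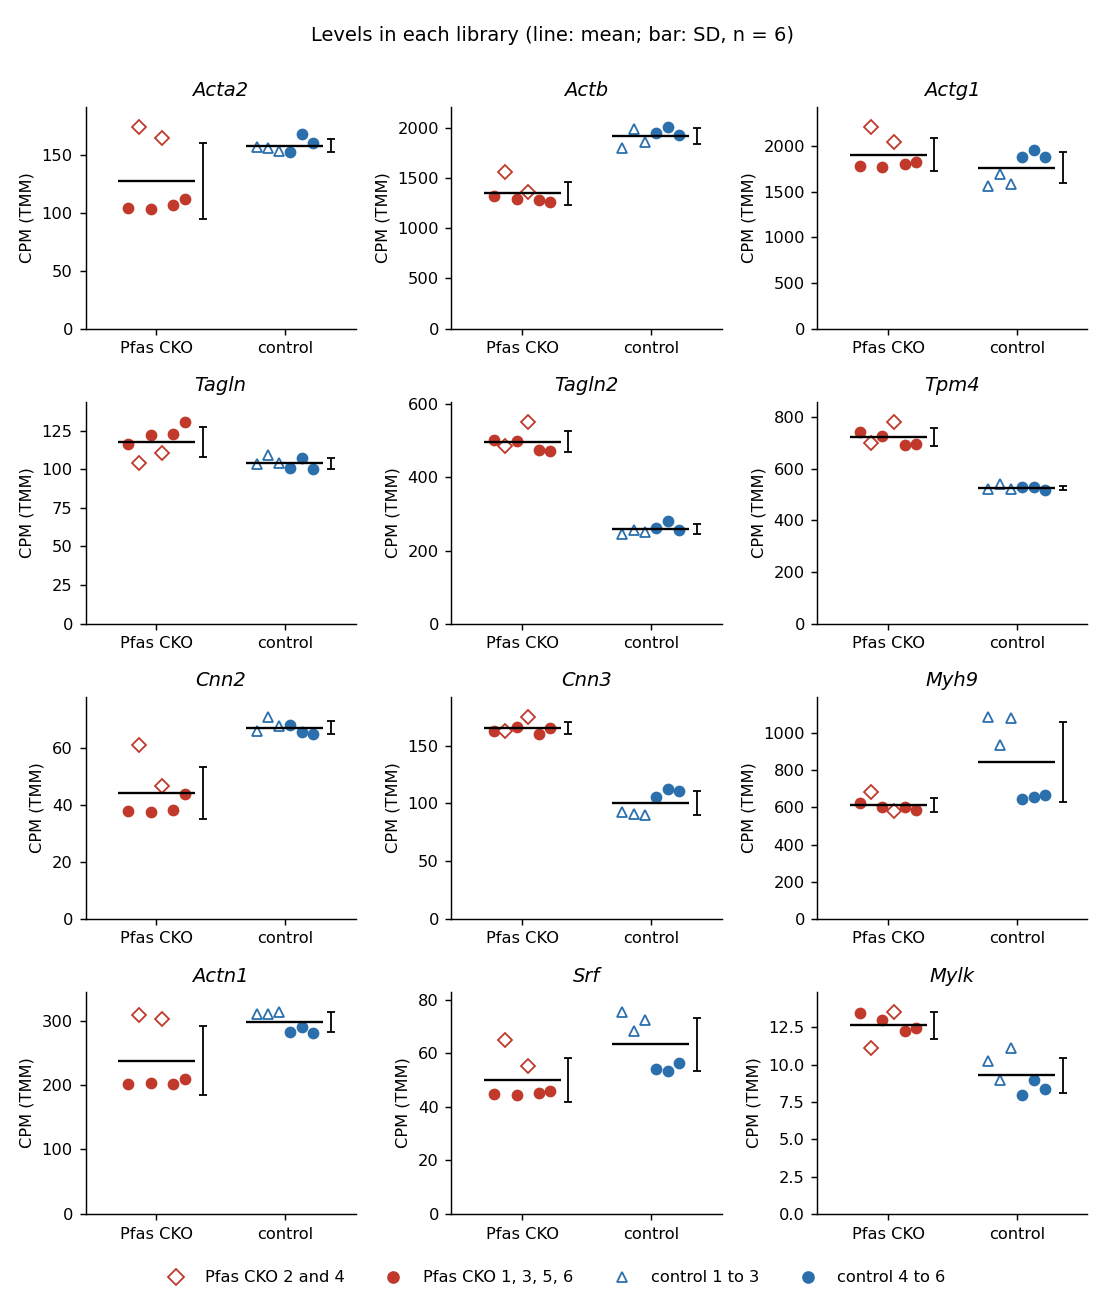
CPM of selected members in each library, Pfas CKO left of control, with the mean and SD of each group. Pfas CKO 2 and 4 sit apart from the other 4 Pfas CKO libraries in Acta2, at 174 and 164 CPM against 104 to 112 CPM.

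Of the 11 crosslinking, adhesion and LIM genes, 5 were higher, 3 lower and 3 not called, near the 33.4% and 35.2% of all genes. With sets summed 3 were higher and 0 lower, beside 18.3% and 18.9% of all genes. Library totals alone gave 3 higher and 6 lower, beside 20.4% and 53% of all genes. Pdlim5, which ties kinases to actin through PDZ and LIM domains, had 124 to 135 CPM in Pfas CKO, with a median of 131 CPM, against 79.9 to 103 CPM with a median of 89.1 CPM in control. The groups were separate, and Pdlim5 was 0.53 higher on the log2 scale (SE 0.07, adjusted p = 3.45e-06) and by the same 0.53 with sets summed (adjusted p = 0.0102). Csrp1, a LIM protein of smooth muscle and stromal cells, had 109.7 to 115 CPM in Pfas CKO, with a median of 111 CPM, against 96.0 to 98.3 CPM with a median of 97.3 CPM in control. The groups did not overlap, and the log2 fold change was 0.20 (SE 0.04, adjusted p = 1.85e-04). The call was lost with sets summed (0.21, adjusted p = 0.155), and with library totals alone the value was -0.03 (adjusted p = 0.466).

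Ldb3, a PDZ and LIM protein of the muscle Z-disc, was higher by the largest fold of the list at a very low level. It had 0.745 to 1.24 CPM in Pfas CKO, with a median of 0.920 CPM, against 0.350 to 0.669 CPM with a median of 0.489 CPM in control. The groups did not overlap, and the log2 fold change was 0.97 (SE 0.21, adjusted p = 8.76e-04), or 1.05 with sets summed (adjusted p = 0.0236). Ldb3 belongs to cardiomyocytes, and the summed level of 15 cardiomyocyte markers, none at 0 in all libraries, was 59.5 to 74.3 CPM in Pfas CKO and 25.7 to 27.9 CPM in control. Of these markers 14 were tested, with 13 higher, 0 lower and 1 not called, beside 33.4% higher and 35.2% lower over all genes. The part of cardiomyocyte RNA in the Ldb3 result was not tested.

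Palld, which encodes palladin of stress fibres, averaged 33.9 ± 8.34 CPM in Pfas CKO and 23.6 ± 0.314 CPM in control (log2 fold change 0.52, SE 0.12, adjusted p = 0.00123), and Pfas CKO 2 and 4 were the highest at 39.0 and 48.6 CPM. Pdlim7, another PDZ and LIM protein, averaged 56.2 ± 4.54 CPM in Pfas CKO and 45.5 ± 5.07 CPM in control (0.30, SE 0.07, adjusted p = 0.00205). Both groups of libraries were separate for these genes, yet Pdlim7 was not called with sets summed (adjusted p = 0.0561). Palld was not called by limma on log2(TPM + 1) (0.19, adjusted p = 0.121).

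The genes that fell here were Zyx, Actn1 and Flna. Zyx, the mechanosensitive adhesion protein zyxin, had 104 to 148 CPM in Pfas CKO and 141 to 191 CPM in control (-0.42, SE 0.11, adjusted p = 0.00277). Actn1, the stress fibre crosslinker alpha-actinin-1, averaged 238 ± 53.1 CPM in Pfas CKO and 298 ± 15.0 CPM in control (-0.32, SE 0.11, adjusted p = 0.0179). Flna, which encodes the crosslinker filamin A, averaged 742 ± 69.7 CPM in Pfas CKO and 917 ± 127 CPM in control (-0.30, SE 0.09, adjusted p = 0.0057). Pfas CKO 1, 3, 5 and 6 lay below all controls for each of these genes, and the call was lost with sets summed and against control 4 to 6. Vcl, Actn4 and Tns1, which encode vinculin, alpha-actinin-4 and tensin-1, had log2 fold changes of 0.04, -0.07 and -0.04 and were not called. With library totals alone all 3 were called lower, at -0.19, -0.30 and -0.27. Actn4 was called in opposite directions against the control sets, at 0.15 against control 4 to 6 (adjusted p = 0.0173) and -0.26 against control 1 to 3 (adjusted p = 6.78e-04).

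**Figure D4:**
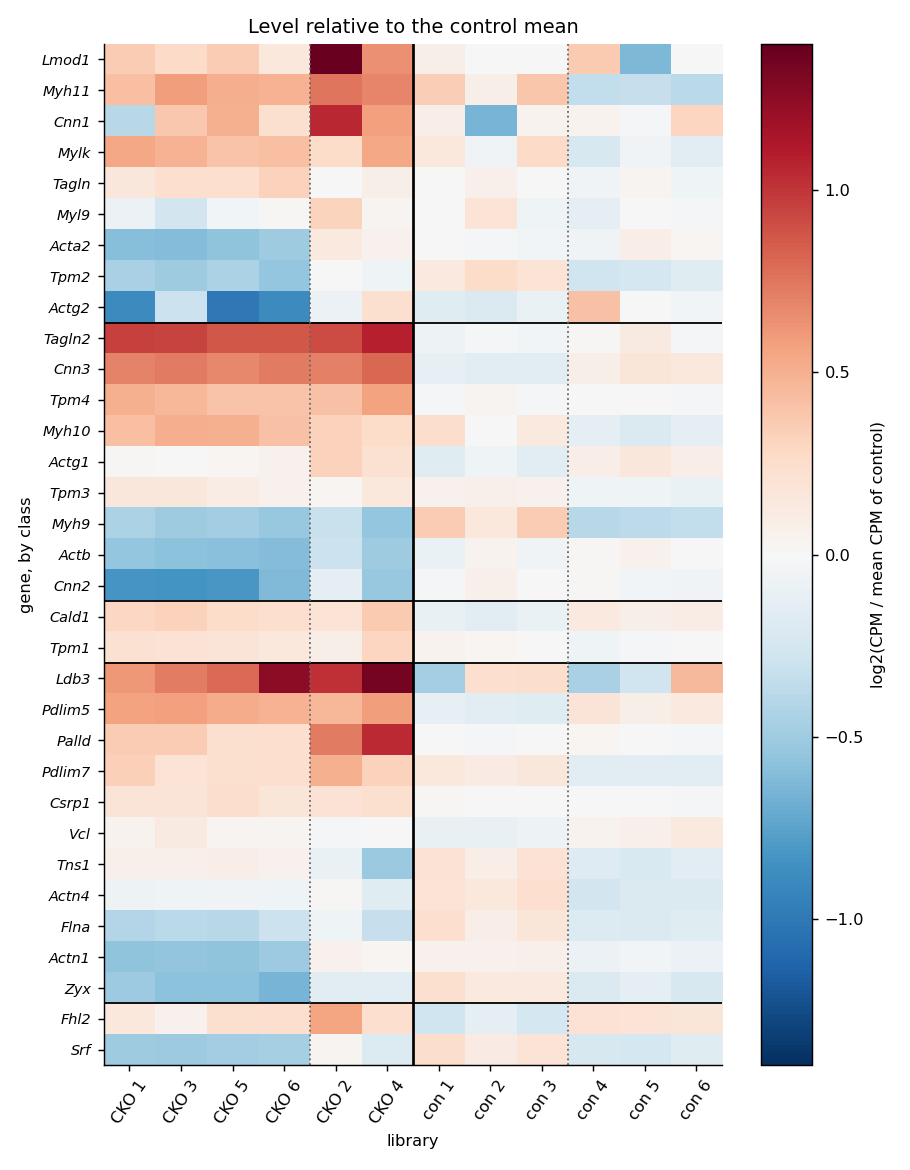
Log2 level of each member in each library relative to the mean of the control libraries, Pfas CKO columns left of control columns. Control 1 to 3 and control 4 to 6 differ visibly in Myh9 and Myh11, and Pfas CKO 2 and 4 differ from the other 4 Pfas CKO libraries in Acta2, Actn1 and Srf.

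Srf and Fhl2 stand for the transcriptional side. Srf (chr17:46548329-46556175) had 44.5 to 64.9 CPM in Pfas CKO, with a median of 45.6 CPM, against 53.5 to 75.3 CPM with a median of 62.4 CPM in control. Pfas CKO 2 and 4, at 64.9 and 55.4 CPM, lay within the controls, and the other 4, at 44.5 to 46.0 CPM, below all of them. Srf fell by 0.34 on the log2 scale (SE 0.11, adjusted p = 0.0149), by 0.52 against control 1 to 3, and was not called against control 4 to 6 (-0.13, adjusted p = 0.35) nor with sets summed (adjusted p = 0.389). Fhl2, a LIM-only partner of SRF, had 48.5 to 68.0 CPM in Pfas CKO, with a median of 54.4 CPM, and 38.2 to 53.4 CPM in control, with a median of 47.4 CPM. Ranges overlapped through control 4 to 6, at 52.1 to 53.4 CPM, and the log2 fold change of 0.25 (SE 0.10, adjusted p = 0.037) was 0.06 and not called against those controls (adjusted p = 0.574) and -0.02 on log2(TPM + 1). With sets summed it was 0.33 and not called (adjusted p = 0.14).

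The CArG box, the site that SRF binds, was searched for on both strands in RefSeq windows of 300 bases (250 before and 50 after each start, GRCm38.p6). It was found in 535 of 32851 windows (1.63%), and 29 of the 33 members had a window. Of these 29 genes, 7 held a box (24.1%, against 1.81% of all genes), and they are shown because SRF and its known targets make up much of the list. Each site is given 5′ to 3′ with the box in capitals.
Srf (chr17:46556225-46556254, minus strand): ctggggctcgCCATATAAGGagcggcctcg
Srf (chr17:46556205-46556234, minus strand): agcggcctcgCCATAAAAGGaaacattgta
Actg1 (chr11:120348566-120348595, minus strand): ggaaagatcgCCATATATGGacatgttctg
Cnn2 (chr10:79988534-79988563, plus strand): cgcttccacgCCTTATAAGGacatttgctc
Vcl (chr14:20929161-20929190, plus strand): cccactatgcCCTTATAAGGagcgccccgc
Myl9 (chr2:156775293-156775322, plus strand): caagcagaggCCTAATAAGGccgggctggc
Ldb3 (chr14:34588697-34588726, minus strand): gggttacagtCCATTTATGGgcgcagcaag
Fhl2 (chr1:43163973-43164002, minus strand): gcgcgtgtgtCCTTATATGGtcaaatgact
Fhl2 (chr1:43196838-43196867, minus strand): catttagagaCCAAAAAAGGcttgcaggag

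The genes with a box did not share a direction, since Ldb3 and Fhl2 were higher, Cnn2 and Srf lower, and Actg1, Myl9 and Vcl not called. The paired boxes of Srf lie 73 to 82 and 53 to 62 bases before its start, and that of Cnn2 47 to 56 bases before. A looser pattern, with a single G or C in the A and T core, was found in 3 of 29 members (Acta2, Myl9 and Tpm3). This was 10.3% of members, close to the 9.69% of all genes, and 8.5% of all windows held it. Acta2 had no full box in its window but a pair of these looser sites. They are given because Acta2 marks the myofibroblast, with the site in capitals. A match describes letters only and does not show that the factor binds there.
Acta2 (chr19:34255438-34255467, minus strand): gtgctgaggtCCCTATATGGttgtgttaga
Acta2 (chr19:34255388-34255417, minus strand): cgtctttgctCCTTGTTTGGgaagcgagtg

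Smooth muscle and cytoplasmic isoforms were then set against each other within a library, as log2 ratios of TPM (0.1 added), which do not depend on the scaling between libraries. Over the 5 pairs compared, the ratio shifted towards the gene classed as smooth muscle type in 2 and towards the cytoplasmic type gene in 2. It was not called in 1. The ratios compare genes, not splice forms. Each family had 1 cytoplasmic partner, and ratios to any other members, such as Cnn3, Myh10 or Actg1, were not compared. The Myh11 to Myh9 ratio was -4.14 to -3.72 in Pfas CKO and -4.98 to -4.91 in control, higher by 0.98 (exact two-sided permutation p = 0.00216, adjusted p = 0.00271, n = 6 each). Its controls hardly varied, although Myh11 and Myh9 each differed between the control sets. The Cnn1 to Cnn2 ratio was -5.30 to -4.48 in Pfas CKO and -6.45 to -5.44 in control, higher by 1.04 (exact p = 0.00216, adjusted p = 0.00271). Cnn2 fell while Cnn3 rose. The Cnn1 share of calponin TPM overlapped, at 0.48% to 1.15% in Pfas CKO and 0.484% to 0.863% in control. The Myh11 share of myosin heavy chain TPM did not, at 5.08% to 6.69% in Pfas CKO and 2.95% to 3.11% in control.

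In the other direction, the Tagln to Tagln2 ratio was -2.52 to -2.06 in Pfas CKO and -1.60 to -1.43 in control, a difference of -0.77 (exact p = 0.00216, adjusted p = 0.00271). The Tpm2 to Tpm4 ratio was -3.85 to -3.28 in Pfas CKO and -3.16 to -2.60 in control, a difference of -0.80 (exact p = 0.00216, adjusted p = 0.00271). None of these 4 ratios overlapped between groups in any of the 12 libraries, and 0.00216 is the smallest p that 924 permutations can give. Such separation was common in these data, since 23.2% of all genes were higher and 23.9% lower without overlap. The share among ratios of other gene pairs was not computed, so these ratios are not shown to stand out. The Acta2 to Actb ratio overlapped, at -3.49 to -2.86 in Pfas CKO and -3.45 to -3.26 in control, with a difference of 0.11 (exact permutation p = 0.385) that became -0.05 without Pfas CKO 2 and 4. With near-identical libraries averaged, leaving 3 Pfas CKO and 2 control values, the differences were -0.86 for Tagln, 1.09 for Cnn1, 1.05 for Myh11 and -0.66 for Tpm2, and no exact test can then reach 0.05 (adjusted p = 0.125 for these pairs).

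**Figure D5:**
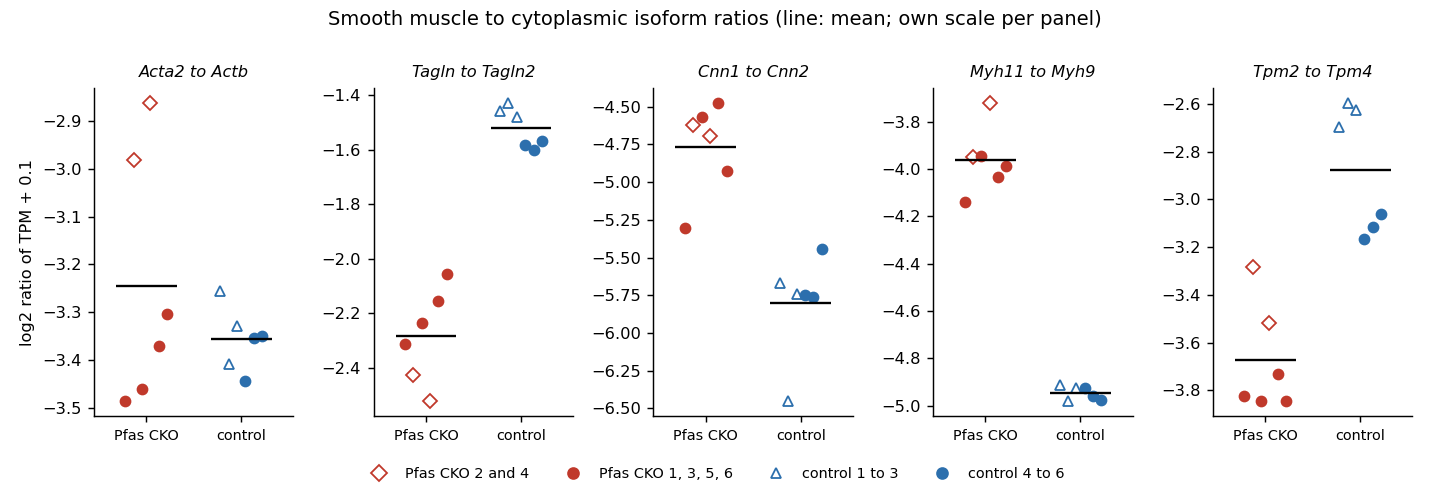
Log2 ratio of the TPM of the smooth muscle type gene to that of the cytoplasmic type gene in each library for 5 pairs, Pfas CKO left of control. Points of the 2 groups do not overlap for Tagln to Tagln2, Cnn1 to Cnn2, Myh11 to Myh9 and Tpm2 to Tpm4, and they overlap for Acta2 to Actb.

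Pfas CKO 2 and 4 were both above the other 4 Pfas CKO libraries in 15 of the 33 members, against 17.9% of all genes, and both below them in 4, against 19.4%. The 15 comprised 7 of the 9 smooth muscle type genes, 3 of the 9 cytoplasmic type, 3 of the 11 crosslinking and adhesion genes, and both Srf and Fhl2. In a comparison made after values were seen, among the 9 members that were lower in Pfas CKO, both libraries reached the lowest control or more in 5 (Acta2, Actn1, Srf, Tpm2 and Zyx), against 5.25% of the 4785 lower genes, and the other 4 Pfas CKO libraries lay below all controls in 9 of 9, against 82.9%. The same 2 libraries had the highest Pfas in their group and the lowest sums of 12 mural cell markers, at 471 and 492 CPM against 548 to 555 CPM in the other 4 Pfas CKO libraries and 408 to 454 CPM in controls. Mural cells also make smooth muscle actin and Myh11, and no mural marker was at 0 in all libraries. Against control, 6 of the 12 mural markers were higher, 2 lower (Cspg4 and Pdgfrb) and 4 not called in Pfas CKO. Over all genes 33.4% were called higher and 35.2% lower. Pfas CKO 2 and 4 also stood apart in endothelial markers (802 and 797 CPM, against 980 to 1023 CPM in the other 4), neutrophil markers (209 and 176 CPM, against 124 to 129 CPM) and fibroblast markers (7948 and 8132 CPM, against 7522 to 7710 CPM). Single markers disagreed with these sums. Among mural markers Rgs5, Rgs4 and Vtn lay below the other 4, and Notch3, Des and Ndufa4l2 above. Among fibroblast markers Col1a1, Col1a2 and Pdgfra lay above, and Dcn, Lum, Tcf21, Dpt and Ddr2 below. The part of residual Pfas or of any of these cell types in these values was not tested.

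The control sets, of the same genotype, also differed in these genes. Control 4 to 6 against control 1 to 3 gave 6 members higher and 14 lower, where 23.5% and 22% of all genes were called. Myh9 (-0.67), Myh11 (-0.64), Tpm2 (-0.44), Actn4 (-0.43) and Srf (-0.42) were lower in control 4 to 6, and Fhl2 was higher by 0.39 on the log2 scale. Against control 4 to 6 alone 16 members were higher and 2 lower (Actb and Cnn2), with a background of 31% and 32.3%, and against control 1 to 3 alone 16 were higher and 9 lower, with a background of 33.1% and 33.3%. Without Pfas CKO 2 and 4, 14 members were higher and 10 lower, with a background of 33.4% and 37.2%. The Pfas CKO libraries then left are a single near-identical set.

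Tmsb4x was higher in Pfas CKO, and Diaph1 and Limk1 were lower. Tmsb4x, which binds unpolymerised actin, averaged 1446 ± 99.4 CPM in Pfas CKO and 1042 ± 53.0 CPM in control (0.47, adjusted p = 1.49e-06). Diaph1, a formin that builds actin filaments, averaged 228 ± 6.45 CPM in Pfas CKO and 354 ± 39.4 CPM in control (-0.63, adjusted p = 5.56e-07). Limk1, a kinase that stops cofilin from cutting filaments, averaged 12.1 ± 0.951 CPM in Pfas CKO and 17.9 ± 1.74 CPM in control (-0.56, adjusted p = 1.01e-05). The SRF partners were looked at after values were seen. Mrtfa averaged 45.3 ± 3.55 CPM in Pfas CKO and 61.8 ± 9.86 CPM in control, Mrtfb 57.3 ± 8.22 CPM in Pfas CKO and 81.7 ± 3.73 CPM in control, and Myocd, at a very low level, 1.84 ± 0.418 CPM in Pfas CKO and 0.622 ± 0.205 CPM in control. By edgeR, Mrtfa fell by 0.45 and Mrtfb by 0.51 on the log2 scale (adjusted p = 5.49e-04 and 5.11e-05) and Myocd was 1.56 higher (adjusted p = 1.79e-05). With sets summed, Mrtfa missed the threshold (adjusted p = 0.0507).

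Of 18 further focal adhesion genes, 9 were higher and 6 lower, with a median log2 fold change of 0.20, beside 33.4% and 35.2% of all genes. With sets summed 5 were higher and 1 lower, beside 18.3% and 18.9% of all genes. Library totals alone gave 5 higher and 8 lower, beside 20.4% and 53% of all genes. The median was then -0.03, beside -0.26 over all genes. Vasp, which lengthens actin filaments at adhesions, averaged 251 ± 12.7 CPM in Pfas CKO and 116 ± 7.35 CPM in control (1.11, adjusted p = 6.30e-11), and Pxn, the adhesion scaffold paxillin, averaged 214 ± 11.8 CPM in Pfas CKO and 121 ± 9.06 CPM in control (0.82, adjusted p = 5.97e-09). Parva and Ilk, which encode partners in the complex beneath integrins, had log2 fold changes of -0.35 (adjusted p = 2.93e-05) and -0.26 (adjusted p = 2.19e-04), and neither was called with sets summed (adjusted p = 0.0691 and 0.171).

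Of 8 immediate early genes that SRF drives with ternary complex factors, 7 were higher and 1 lower, with a median of 0.47, beside 33.4% and 35.2% of all genes. With sets summed, and again with library totals alone, 4 were higher and 1 lower. All genes gave 18.3% and 18.9% with sets summed, and 20.4% and 53% with library totals alone. Nr4a1, a nuclear receptor, averaged 114 ± 6.48 CPM in Pfas CKO and 45.8 ± 3.88 CPM in control (1.32, adjusted p = 4.88e-11). Mcl1, a survival gene, averaged 1101 ± 102 CPM in Pfas CKO and 554 ± 27.4 CPM in control (0.99, adjusted p = 1.71e-09). Egr2, a zinc finger factor, was the gene that fell, and averaged 80.2 ± 2.61 CPM in Pfas CKO and 133 ± 3.78 CPM in control (-0.73, adjusted p = 5.00e-10).

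Of 10 matrix genes of myofibroblasts, 6 were higher and 2 lower, with a median of 0.26, beside 33.4% and 35.2% of all genes. With sets summed 2 were higher and 0 lower, beside 18.3% and 18.9% of all genes. Library totals alone gave 3 higher and 3 lower, beside 20.4% and 53% of all genes. Postn, the matricellular periostin, averaged 2383 ± 253 CPM in Pfas CKO and 1703 ± 194 CPM in control (0.48, adjusted p = 1.03e-04), and missed the threshold with sets summed (adjusted p = 0.0716). Comp, a cartilage and scar matrix protein, averaged 42.4 ± 18.2 CPM in Pfas CKO and 11.7 ± 1.56 CPM in control (1.85, adjusted p = 1.77e-05). Cthrc1 and Ddah1 fell by 0.34 and 0.27 on the log2 scale (adjusted p = 0.0213 and 0.00952) with overlapping groups, and both calls were lost with sets summed (adjusted p = 0.571 and 0.11).

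Because these are bulk libraries, fewer cells of a type and less RNA per cell cannot be told apart. Endothelial markers (9) summed to 797 to 1023 CPM in Pfas CKO and 742 to 787 CPM in control. They disagreed, with 7 higher and 2 lower, Kdr (log2 fold change -0.72) and Vwf (-0.50). Neutrophil markers (8) summed to 124 to 209 CPM in Pfas CKO and 226 to 251 CPM in control. The neutrophil markers disagreed, since Mmp8 averaged 25.6 CPM in Pfas CKO and 154 CPM in control while S100a8 and S100a9 were 4.53-fold and 11.9-fold higher. Platelet markers (7) summed to 298 to 333 CPM in Pfas CKO and 108 to 133 CPM in control. Most of the platelet sum was Pf4, which averaged 291 CPM in Pfas CKO and 107 CPM in control, while Treml1 fell to 24% of control and Itga2b and Gp1bb were not called. Erythrocyte markers (5) summed to 129 to 211 CPM in Pfas CKO and 8.60 to 9.51 CPM in control. No marker of any list was at 0 in all libraries. Platelets and macrophages also carry Actb, Tagln2, Flna, Myh9, Tpm4 and Tmsb4x, and the part of these cells in the values above was not tested.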

How the data were processed

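Messenger RNA of cardiac fibroblasts was enriched with oligo(dT) beads and sequenced, per the labels' protocols, in 6 Pfas CKO and 6 control libraries, grouped by the genotype label. The deposited table holds, per the file headers, estimated counts (not normalized by the authors) and TPM values (length-corrected and scaled per library by the authors). The 13 FPKM columns were left aside. Per the submitters' processing notes, 9 libraries list Bowtie2, RSEM and DESeq2 without roles or versions, no tool is listed for control 1 to 3, and the build is GRCm38. The sources used here do not give the strand setting, the annotation or how reads shared by near-identical genes were handled. The 1067 genes blank in some control library were left out, which left 17704.

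The test was edgeR 4.0.16 (R 4.3.3) on the estimated counts after rounding, with TMM scaling, filterByExpr, glmQLFit and glmQLFTest and no term but group. P-values were adjusted by Benjamini-Hochberg across 13600 genes and called under 0.05. Levels in CPM carry the TMM scaling. The script was tested on simulated data. Depth was 20320133 to 20950074 estimated counts per library. Near-identical sets were libraries with a mean chi-square per gene under 10. Isoform ratios used log2(TPM + 0.1) and an exact two-sided permutation test over libraries, adjusted over 5 pairs. Alternatives were DESeq2 1.42.0, limma-voom (limma 3.58.1), scaling by RLE or by library totals alone, limma on log2(TPM + 1) or log2(TPM + 0.1) where mean TPM was 1 or more, no filter, a 5 CPM minimum mean, sets summed, a replicate block, and libraries or sets left out. Gene positions are from GENCODE M21 (GRCm38), and promoter sequences from RefSeq (GRCm38.p6).

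The members and all lists were chosen with earlier results of these data known. All 33 members are named. Values by library are given for the 5 isoform pairs, Srf, Fhl2 and the 3 called genes with the smallest p among the other members of each class, and from each further list the 2 called genes with the smallest p in each direction and a mean of at least 2 CPM. Not every result that this rule takes is given, and 1 list is not reported here.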

Additional observations from a re-analysis of the deposited data

Results flagged for a closer look

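Each member was examined in each group for a single library far from the other 5, with Dixon's 95% critical value of 0.625 for the gap to the nearest library as a share of the group's range. Of 66 combinations of member and group, 6 were flagged, and chance flags about 1 in 20. No explanation was tested.

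In Pfas CKO 2, Actb had 1564 CPM, with the next library at 1359 CPM. Flna had 879 CPM there, with the next at 743 CPM. Fhl2 had 68.0 CPM, with the next at 54.6 CPM, and Lmod1 1.62 CPM, with the next at 0.968 CPM. In Pfas CKO 4, Tns1 was the lowest at 99.9 CPM, with the next at 135 CPM. In control 4, Actg2 was the highest at 1.83 CPM, with the next at 1.38 CPM. Pfas CKO 2 thus accounts for 4 of the 6, and it is a set of its own by the chi-square comparison.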

How the results depend on the processing

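Counts of members called higher (17) and lower (9) were within 1.5 times under RLE scaling, DESeq2 (16 and 9), limma-voom, no filter, a minimum mean of 5 CPM (14 and 9) and without Pfas CKO 2 and 4 (14 and 10). With library totals alone they were 8 and 15, on log2(TPM + 1) and log2(TPM + 0.1) 5 and 16, and with sets summed 8 and 1. These scalings move the median of all genes to -0.26, -0.28 and -0.31, and summing leaves fewer samples. Without control 1 to 3 the lower count was 2. Leaving out a single library gave 14 to 17 higher and 7 to 10 lower. The cause of these differences was not tested.

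Signs turned for Tagln (-0.055 with totals, -0.11 on both TPM scales), Actg1 (-0.12, -0.17 on both, -0.007 without control 1 to 3), Tpm3 (-0.12, -0.16 on both), Tpm1 (-0.044, -0.095 on both), Vcl (-0.19, -0.24 on both, -0.052 without control 1 to 3) and Csrp1 (-0.031, -0.085 on both). Cald1 (-0.004) and Fhl2 (-0.02) turned on both TPM scales. Myl9 was -0.22 with totals, -0.27 and -0.28 on the TPM scales, -0.008 at a minimum of 5 CPM, -0.037 without control 4 to 6, -0.098 without Pfas CKO 2 and 4, and -0.072 to 0.058 with a single library left out. Without control 1 to 3, Actn4 was 0.15 and Tns1 0.15. Tns1 was 0.061 without Pfas CKO 2 and 4, and -0.079 to 0.03 with a single library left out. The Acta2 to Actb ratio was -0.049 without Pfas CKO 2 and 4.

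With near-identical libraries averaged, the ratio differences were -0.86 (Tagln), 1.09 (Cnn1), 1.05 (Myh11) and -0.66 (Tpm2), none of which such a design can call. Leaving out a single library gave 0.907 to 1.144 for Cnn1 to Cnn2, 0.934 to 1.018 for Myh11 to Myh9, -0.811 to -0.718 for Tagln to Tagln2, -0.876 to -0.742 for Tpm2 to Tpm4 and 0.036 to 0.161 for Acta2 to Actb.

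The replicate numbers share no stated litter or day, and no pairing was assumed. Same-numbered libraries correlated at -0.09 to 0.18 over the 6 pairs, and the same-numbered control was the best match for Pfas CKO 2 and 4. The near-identical sets within each group could mask a pairing, so this check cannot exclude one. With the replicate block, 16 members were higher and 9 lower, the loss being Tpm3, and the ratios kept their values (0.11, -0.77, 1.04, 0.98 and -0.80). Depth is alike in all libraries, and Lmod1, Ldb3, Cnn1 and Actg2 rest on few reads.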
